A study of Mus musculus with 12 samples.

Results

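The circadian clock genes of mouse back skin were followed across 12 RNA-seq samples, as a readout of the state of the tissue clock when the skin was taken. The members were the 10 rows of the deposited expression table with the symbols Per1, Per2, Per3, Cry1, Cry2, Nr1d1, Nr1d2, Dbp, Tef and Ciart. They were 10 of 18505 gene symbols, and all 10 were among the 15288 genes with enough signal to be tested. The mice were wild-type male BALB/c animals of 5 to 6 weeks with shaved backs, 4 in each of 3 groups, and every sample was taken on day 10. The control group received petroleum jelly, and its treatment is labelled only as white space handling. The IMQ + NS group received cream with imiquimod (IMQ), a TLR7 agonist that induces psoriasis-like inflammation, for 6 h a day and then normal saline (NS) under gauze and film. The IMQ + BZLF group received the same cream and then Banzhilian formula (BZLF), an extract of 9 herbal materials, at a dose that the sources used here do not give for the sequenced samples. Gauze and film were described for the IMQ groups but not for the control group. The mice were kept on a cycle of 12 h of light and 12 h of dark, and the hour at which each mouse was killed is not given in the sources used here.

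The circadian clock is a feedback loop that runs in most cells of the body. The activators CLOCK and BMAL1, the latter listed in the table under its older symbol Arntl, bind E-box sequences and switch on the Per and Cry genes. The PER and CRY proteins then return to the nucleus and inhibit these activators. CLOCK and BMAL1 also switch on Nr1d1 and Nr1d2, which encode the nuclear receptors REV-ERB alpha and REV-ERB beta, repressors of Arntl. DBP and TEF are PAR bZIP transcription factors that bind D-box sequences and carry the rhythm to output genes, and CIART represses CLOCK and BMAL1. In skin, clocks are known in keratinocytes, fibroblasts and hair follicles, where they time DNA replication and cell division. Transcripts of this set peak at different hours, so a shift of the clock is known to raise some members while it lowers others.

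On GRCm38.p6 the repressor genes lie at chr11:69095108-69109965 (Per1), chr1:91415977-91459351 (Per2), chr4:150997018-151044707 (Per3), chr10:85131700-85185054 (Cry1) and chr2:92403646-92434085 (Cry2). The REV-ERB genes lie at chr11:98767932-98775377 (Nr1d1) and chr14:18204056-18239106 (Nr1d2), and the others at chr7:45705100-45710203 (Dbp), chr15:81802673-81826863 (Tef) and chr3:95878500-95882257 (Ciart). All 10 are protein-coding in RefSeq. The E-box and the D-box can be read directly in the sequence before some of these genes. RefSeq promoter windows (GRCm38.p6, 250 bases before to 50 bases after the start) were found for 9 of the 10 members, in 11 entries, and none was found for Per2. The E-box CACGTG was matched in 5 of the 11 entries, against 7.15% of 32851 mouse promoter windows of the same length. These entries belonged to 4 members (Per1, Cry1, Tef and Ciart), and the second entry of Per1 held 0 matches. The D-box, searched as TTATGTAA and TTACGTAA on both strands, was matched in Per3 alone among the members, against 1.06% of windows. The core TAGGTCA of the REV-ERB and ROR element was matched in 0 of the 11 entries, against 2.61% of windows, and no match overlapped another. These are matches of letters and were not tested as binding sites. Below are the 250 bases before a RefSeq start of 4 members (for Per1 and Tef the first of those listed), written 5′ to 3′ on the strand of the gene with the matched E-box or D-box in capitals. They are shown because they hold the elements through which the loop is known to act, 1 E-box in Per1 and Tef, 3 E-boxes in Ciart and 2 D-boxes in Per3. The windows are chr11:69098699-69098948 on the plus strand for Per1, chr4:151044666-151044915 on the minus strand for Per3, chr15:81802423-81802672 on the plus strand for Tef and chr3:95882229-95882478 on the minus strand for Ciart.
Per1: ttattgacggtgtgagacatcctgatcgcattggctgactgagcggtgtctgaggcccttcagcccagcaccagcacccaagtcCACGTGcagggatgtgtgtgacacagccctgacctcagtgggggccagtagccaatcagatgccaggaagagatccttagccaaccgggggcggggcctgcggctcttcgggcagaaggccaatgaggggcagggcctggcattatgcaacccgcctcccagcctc
Per3: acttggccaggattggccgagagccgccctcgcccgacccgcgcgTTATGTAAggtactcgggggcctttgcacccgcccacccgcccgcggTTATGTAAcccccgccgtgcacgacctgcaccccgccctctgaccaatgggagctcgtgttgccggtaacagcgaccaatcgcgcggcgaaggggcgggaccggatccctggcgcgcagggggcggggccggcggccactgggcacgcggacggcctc
Tef: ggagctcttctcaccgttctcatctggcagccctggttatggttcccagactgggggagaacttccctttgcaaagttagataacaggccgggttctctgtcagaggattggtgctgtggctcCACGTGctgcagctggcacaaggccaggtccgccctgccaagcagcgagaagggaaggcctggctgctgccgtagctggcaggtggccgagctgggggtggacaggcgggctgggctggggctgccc
Ciart: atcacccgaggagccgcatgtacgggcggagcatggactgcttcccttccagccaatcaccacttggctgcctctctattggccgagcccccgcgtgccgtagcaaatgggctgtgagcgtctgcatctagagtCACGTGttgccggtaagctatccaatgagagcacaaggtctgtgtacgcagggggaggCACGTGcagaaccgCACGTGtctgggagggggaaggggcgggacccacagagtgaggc

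The deposited values are FPKM, in which the fragments of a gene are divided by its transcript length and by the size of the library, so that the levels of different genes can be set side by side. FPKM summed to between 444660 and 506622 per sample, and the read depth behind each value is unknown. Skin markers were present in every group, with a summed level of 6 epidermal keratinocyte genes of at least 1888 FPKM in each sample. Control replicate 2 stood apart from the other controls. Its summed level of 8 proliferation genes was 184.7 FPKM against 18.8 to 32.4, that of 8 hair shaft genes was 290.8 FPKM against 10.9 to 29.1, and that of 8 skeletal muscle genes was 3641 FPKM against 8257 to 9059. Each comparison with the controls was therefore also made without this sample. Groups were compared with limma on log2(FPKM + 0.1), so that changes of weakly expressed genes are understated, and p-values were adjusted over all 15288 genes. A gene passed at an adjusted p below 0.05. Nothing states that the samples of a group were processed separately, so p-values measure the spread between these samples. The level of a gene in whole skin cannot tell apart fewer cells of a type from less RNA per cell.

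After IMQ, members were lower or did not pass the test, and none passed as higher. In the IMQ + NS samples 4 of 10 members were lower than in the control samples (Cry2, Tef, Dbp and Nr1d2) and 0 were higher, by limma. Of all genes tested, 27.1% were lower and 29.0% were higher in this comparison. At an unadjusted p below 0.05 the counts were also 4 lower and 0 higher, where 29.1% of all genes were lower and 32.5% higher. The median log2 fold change of the 10 members was -0.42, with 8 of 10 below 0, against a median of 0.05 for all genes tested. The same 4 members were those whose samples did not overlap between the groups, where 25.7% of all genes lay entirely lower and 23.7% entirely higher. No member passed the test with a change of over 2-fold in this fit, as 22.4% of all genes did. Cry2 did so in some of the alternatives given below.

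In the IMQ + BZLF samples, 1 of 10 members (Nr1d1) was lower than in the IMQ + NS samples and 0 were higher, against 5.17% and 1.28% of all genes. At an unadjusted p below 0.05 by limma, 4 members were higher (Per2, Per3, Cry2 and Tef) and 1 was lower, where 7.96% of all genes were higher and 14.8% lower. The log2 fold change was above 0 in 8 of 10 members, with a median of 0.20 against -0.02 for all genes. Against the control samples, 2 members were lower (Cry2 and Tef) and 0 were higher, where 29.2% of all genes were lower and 23.8% higher, and at an unadjusted p below 0.05 the counts were 4 lower and 0 higher, where 32.2% of all genes were lower and 27.4% higher. In that comparison 8 of 10 log2 fold changes were below 0 and the median was -0.16, against -0.02 for all genes. No member changed by over 2-fold in these comparisons either, against 2.52% and 19.7% of all genes. The IMQ + NS samples enter the first and the second comparison, and the control samples the first and the third, so the comparisons are not independent.

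**Figure D1:**
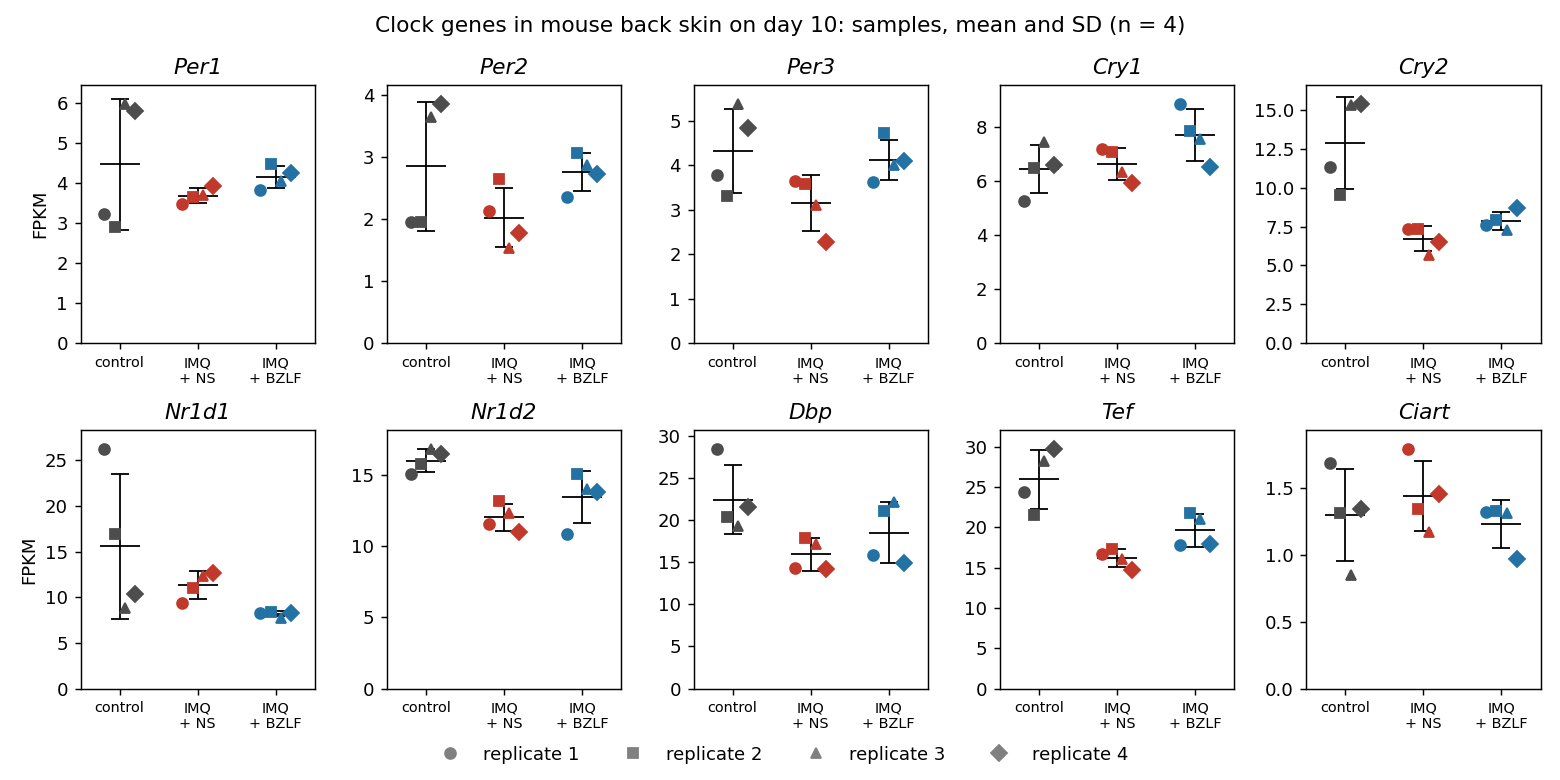
FPKM of the 10 clock genes (vertical axes, starting at 0) in the control, IMQ + NS and IMQ + BZLF samples, with 1 symbol per replicate and bars for the mean and SD (n = 4). Cry2, Tef, Dbp and Nr1d2 lie lower in every IMQ + NS sample than in every control sample, and the control samples of Per1, Per2 and Nr1d1 are spread widely.

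The Per genes encode the proteins that, with the cryptochromes, close the core loop, and none of the 3 passed in any comparison. In the control replicates 1 to 4 Per1 was at 3.23, 2.91, 5.98 and 5.80 FPKM, in the IMQ + NS replicates at 3.48, 3.65, 3.70 and 3.94 FPKM, and in the IMQ + BZLF replicates at 3.83, 4.47, 4.06 and 4.26 FPKM. Both IMQ groups lay in the gap between the low and the high control samples, so that the groups overlapped although the IMQ samples were close to each other. The log2 fold change of Per1 was -0.20 ± 0.24 (SE) in IMQ + NS versus control samples (95% interval -0.74 to 0.34, adjusted p = 0.495) and 0.16 ± 0.08 in IMQ + BZLF versus IMQ + NS samples (adjusted p = 0.249). Per2 was at 1.95, 1.96, 3.64 and 3.86 FPKM in the control replicates, at 2.14, 2.65, 1.54 and 1.78 FPKM in the IMQ + NS replicates and at 2.37, 3.08, 2.88 and 2.73 FPKM in the IMQ + BZLF replicates. Its controls also fell into a lower and a higher pair, and each of the groups overlapped the other two. The log2 fold change of Per2 was -0.43 ± 0.27 versus control samples (adjusted p = 0.206), and 0.45 ± 0.16 for IMQ + BZLF versus IMQ + NS samples (95% interval 0.08 to 0.82, adjusted p = 0.144).

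Per3, which is known as the least essential of the Per genes for the rhythm, had a like order of samples. Its level was 3.79, 3.31, 5.38 and 4.84 FPKM in the control replicates, 3.64, 3.57, 3.11 and 2.28 FPKM in the IMQ + NS replicates, and 3.63, 4.72, 4.02 and 4.09 FPKM in the IMQ + BZLF replicates. Of the 4 IMQ + NS samples, 2 lay under the lowest control sample and the others within the range of the controls. The log2 fold change was -0.44 ± 0.20 in IMQ + NS versus control samples (adjusted p = 0.0856, limma) and 0.39 ± 0.15 in IMQ + BZLF versus IMQ + NS samples (adjusted p = 0.166). Without control replicate 2 the first of these was -0.56 and passed (adjusted p = 0.0273), which made 5 members lower in place of 4. Between IMQ + BZLF and control samples the log2 fold changes of Per1, Per2 and Per3 were -0.04 (95% interval -0.58 to 0.51), 0.02 (-0.53 to 0.58) and -0.05 (-0.43 to 0.33). These intervals still allow changes of about 0.5 on the log2 scale for Per1 and Per2 in both directions, and the sign of all 3 values turned when single samples were left out.

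The cryptochromes, the stronger repressors of CLOCK and BMAL1, differed from each other. Cry2 was at 11.3, 9.51, 15.3 and 15.4 FPKM in the control replicates, at 7.36, 7.36, 5.67 and 6.51 FPKM in the IMQ + NS replicates and at 7.61, 7.89, 7.29 and 8.68 FPKM in the IMQ + BZLF replicates. All 8 IMQ samples were under the lowest control sample. Cry2 fell by 0.90 ± 0.17 (SE) on the log2 scale in IMQ + NS versus control samples, to 0.534 times the control level (adjusted p = 0.00227, limma), the largest change of a member in this comparison. In IMQ + BZLF versus control samples it fell by 0.68 ± 0.16, to 0.626 times the control level (adjusted p = 0.00798). Both exact permutation p-values were 0.0286, the smallest that 4 against 4 samples can give. Between IMQ + BZLF and IMQ + NS samples the log2 difference was 0.23 ± 0.10 (adjusted p = 0.207), with overlap of the groups.

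Cry1 did not pass in any comparison. Its level was 5.25, 6.47, 7.43 and 6.61 FPKM in the control replicates, 7.19, 7.09, 6.34 and 5.94 FPKM in the IMQ + NS replicates and 8.84, 7.84, 7.57 and 6.50 FPKM in the IMQ + BZLF replicates. The groups overlapped in all 3 comparisons, and the highest value was in an IMQ + BZLF sample. The log2 fold change was 0.05 ± 0.12 in IMQ + NS versus control samples (95% interval -0.23 to 0.33), a value whose sign turned when the samples were rescaled to equal sums. It was 0.20 ± 0.10 in IMQ + BZLF versus IMQ + NS samples (adjusted p = 0.279) and 0.25 ± 0.14 in IMQ + BZLF versus control samples (adjusted p = 0.141). In the control samples Cry2 stood at 12.9 ± 2.93 FPKM (SD, n = 4) and Cry1 at 6.44 ± 0.898, while in the IMQ + NS samples they were at 6.73 ± 0.811 and 6.64 ± 0.601.

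Nr1d1 encodes REV-ERB alpha, which represses Arntl and is known for one of the strongest daily rhythms of any transcript. It was at 26.2, 16.9, 8.84 and 10.4 FPKM in the control replicates, at 9.39, 10.98, 12.4 and 12.6 FPKM in the IMQ + NS replicates and at 8.25, 8.40, 7.78 and 8.28 FPKM in the IMQ + BZLF replicates. The 4 IMQ + BZLF samples were nearly equal, and each was lower than every sample of the other groups. Nr1d1 fell by 0.46 ± 0.09 (SE) on the log2 scale in IMQ + BZLF versus IMQ + NS samples, to 0.728 times the IMQ + NS level (adjusted p = 0.0238, limma; exact permutation p = 0.0286). This call was lost without IMQ + BZLF replicate 2 (adjusted p = 0.0635) or 3 (0.0677), without IMQ + NS replicate 2 (0.0517), 3 (0.0717) or 4 (0.0656), with median ratio scaling (0.0504) and with all 12 samples in 1 fit (0.472), while the log2 fold change stayed between -0.55 and -0.40. Against the control samples the values were -0.33 ± 0.31 for IMQ + NS (adjusted p = 0.387) and -0.79 ± 0.30 for IMQ + BZLF (adjusted p = 0.0531). The latter passed in 7 of 19 alternatives, among them without control replicate 3 (-1.02, adjusted p = 0.0192) or control replicate 4 (-0.94, adjusted p = 0.0426). The others were median ratio scaling, equal sums, quantile normalization, all 12 samples in 1 fit and the replicate number as a block.

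Nr1d2 encodes REV-ERB beta, which shares targets with REV-ERB alpha. It was at 15.02, 15.7, 16.8 and 16.4 FPKM in the control replicates, at 11.5, 13.2, 12.3 and 10.96 FPKM in the IMQ + NS replicates and at 10.9, 15.1, 14.0 and 13.8 FPKM in the IMQ + BZLF replicates. The controls agreed closely and lay above all IMQ + NS samples, whereas the highest IMQ + BZLF sample reached the lowest control. Nr1d2 fell by 0.41 ± 0.08 on the log2 scale in IMQ + NS versus control samples, to 0.751 times the control level (adjusted p = 0.00306, limma). The log2 difference of IMQ + BZLF samples was 0.15 ± 0.10 versus IMQ + NS samples (adjusted p = 0.425) and -0.26 ± 0.11 versus control samples (adjusted p = 0.0745). The difference between IMQ + BZLF and IMQ + NS samples was thus below 0 for Nr1d1, where it passed, and above 0 for Nr1d2, where it did not, and the difference between these genes was not tested.

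Tef and Dbp had the highest levels of the 10 members in the control samples, at 25.9 ± 3.69 and 22.4 ± 4.10 FPKM (SD, n = 4). Both were lower in the IMQ + NS samples. Tef was at 24.3, 21.5, 28.2 and 29.7 FPKM in the control replicates, at 16.7, 17.3, 16.1 and 14.7 FPKM in the IMQ + NS replicates and at 17.8, 21.8, 21.0 and 17.9 FPKM in the IMQ + BZLF replicates. The IMQ + BZLF samples lay above every IMQ + NS sample, and their highest just passed the lowest control. Tef fell by 0.67 ± 0.11 on the log2 scale in IMQ + NS versus control samples, to 0.630 times the control level (adjusted p = 0.00122, limma), and by 0.39 ± 0.12 in IMQ + BZLF versus control samples (adjusted p = 0.0246). The second call was lost without IMQ + BZLF replicate 1 (adjusted p = 0.0663) or 4 (0.0662), without control replicate 3 (0.0687) or 4 (0.0683), and with median ratio scaling (0.0681). Between IMQ + BZLF and IMQ + NS samples Tef differed by 0.27 ± 0.08 (adjusted p = 0.0971; exact permutation p = 0.0286), 1 member that did not overlap upwards where 4.24% of all genes did so, beside Nr1d1 as the 1 member that did not overlap downwards, where 10.9% of all genes did so.

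Dbp, whose product activates D-box genes, was at 28.4, 20.4, 19.3 and 21.6 FPKM in the control replicates, at 14.4, 17.9, 17.2 and 14.2 FPKM in the IMQ + NS replicates and at 15.8, 21.0, 22.1 and 14.95 FPKM in the IMQ + BZLF replicates. All IMQ + NS samples were under the lowest control, and the IMQ + BZLF samples formed a low and a high pair that spanned the gap. Dbp fell by 0.48 ± 0.14 on the log2 scale in IMQ + NS versus control samples, to 0.715 times the control level (adjusted p = 0.0165, limma). The call was lost with the replicate number as a block (adjusted p = 0.0505), and whether the numbers pair the samples is not known. The log2 differences of IMQ + BZLF samples were 0.20 ± 0.14 versus IMQ + NS samples (95% interval -0.12 to 0.52, adjusted p = 0.442) and -0.28 ± 0.17 versus control samples (95% interval -0.66 to 0.10, adjusted p = 0.183). Ciart, the repressor with 3 E-boxes in its promoter window, had the lowest level of the members. It was at 1.69, 1.32, 0.852 and 1.35 FPKM in the control replicates, at 1.79, 1.34, 1.17 and 1.46 FPKM in the IMQ + NS replicates and at 1.32, 1.33, 1.31 and 0.967 FPKM in the IMQ + BZLF replicates. The groups overlapped in every comparison, with log2 fold changes of 0.16 ± 0.21, -0.21 ± 0.16 and -0.05 ± 0.21 for IMQ + NS versus control, IMQ + BZLF versus IMQ + NS and IMQ + BZLF versus control samples (adjusted p = 0.544, 0.476 and 0.868). Between IMQ + BZLF and control samples, Cry2 and Nr1d1 were the 2 members without overlap, both lower, where 28.1% of all genes lay entirely lower and 19.4% entirely higher.

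**Figure D2:**
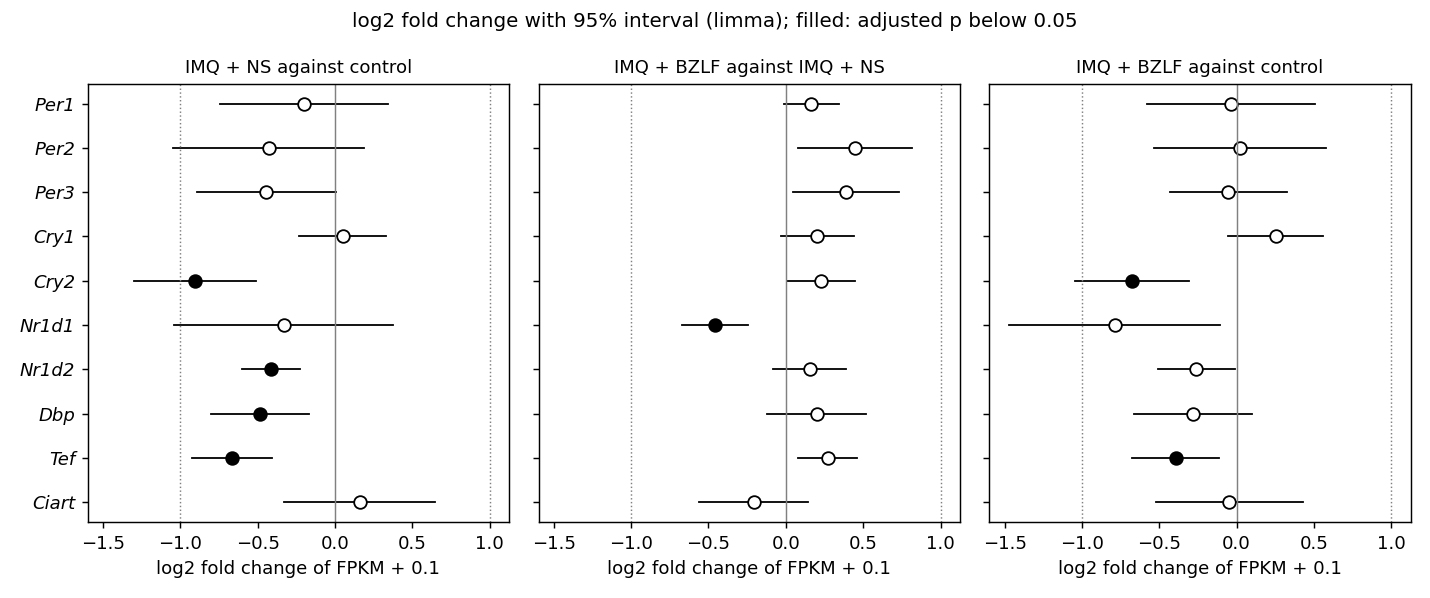
log2 fold change of FPKM + 0.1 (horizontal axes) of the 10 clock genes in the 3 comparisons, with the 95% interval from limma and filled points for an adjusted p below 0.05. Points are filled for Cry2, Nr1d2, Dbp and Tef in IMQ + NS versus control, for Nr1d1 in IMQ + BZLF versus IMQ + NS and for Cry2 and Tef in IMQ + BZLF versus control, and no point lies past a 2-fold change (dotted lines at -1 and 1).

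The member counts with the controls changed little when control replicate 2 was left out. The number of members lower was 5 in place of 4 for IMQ + NS and 2 in both cases for IMQ + BZLF, and the number higher stayed at 0. Of all 15288 genes tested, 4425 were then lower and 6036 higher for IMQ + NS, in place of 4142 and 4427. For IMQ + BZLF 4744 were lower and 5366 higher, in place of 4458 and 3640. The log2 fold changes in IMQ + NS versus control samples were then -1.04 for Cry2, -0.75 for Tef, -0.52 for Dbp and -0.42 for Nr1d2.

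The median spread of the members was larger between control mice than between mice of either IMQ group, as it was for all genes. The median SD of log2(FPKM + 0.1) over the 10 members was 0.33 in the control, 0.18 in the IMQ + NS and 0.15 in the IMQ + BZLF samples, where the medians over all genes tested were 0.25, 0.13 and 0.15. For Per1 the SD was 0.53 in the control and 0.07 and 0.09 in the IMQ + NS and IMQ + BZLF samples, and for Nr1d1 it was 0.71, 0.19 and 0.05. Nr1d2 had the opposite order, with 0.07 in the control, 0.11 in the IMQ + NS and 0.20 in the IMQ + BZLF samples, and Dbp was more spread in the IMQ + BZLF samples (0.28) than in the controls (0.25). These SDs are a description and were not compared by a test.

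Within the controls, several members put the replicates in a like order, which was seen before it was counted. In 7 of 10 members (Per1, Per2, Per3, Cry1, Cry2, Nr1d2 and Tef) both control replicates 3 and 4 were higher than both replicates 1 and 2, and in Nr1d1 alone both were lower. Of all genes tested, 15.2% were higher and 34.2% lower in replicates 3 and 4 in the same sense. Per1 and Nr1d1 thus took opposite positions in the same controls. The ratio of Per1 to Nr1d1, a measure within a sample that was chosen after these values had been seen, was 0.123, 0.172, 0.677 and 0.560 in the control replicates 1 to 4. It was 0.371, 0.333, 0.299 and 0.312 in the IMQ + NS replicates and 0.464, 0.532, 0.523 and 0.515 in the IMQ + BZLF replicates. The IMQ groups were each tight and did not overlap, while the control samples covered a range wider than both. No test of this ratio was made.

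**Figure D3:**
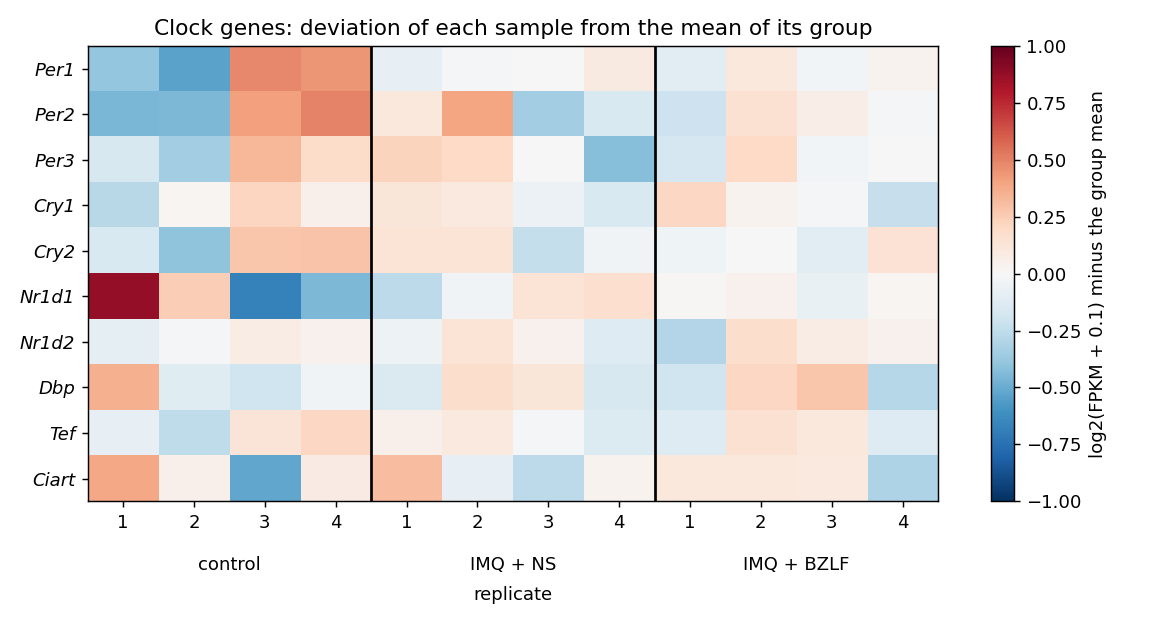
Deviation of log2(FPKM + 0.1) from the mean of the group (color, red above and blue below) for the 10 clock genes in each replicate of the 3 groups. The strongest colors are in the control samples, where replicates 3 and 4 are above replicates 1 and 2 for Per1, Per2, Per3 and Cry2 and below them for Nr1d1.

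Measures outside the clock also differed between these control samples. Per1 is also known as a gene that responds within minutes to signals outside the clock, and 8 immediate early genes, the class of such rapidly induced genes, were summed for comparison. Their summed level was 386, 479, 962 and 1048 FPKM in the control replicates 1 to 4, 312 to 320 FPKM in the IMQ + NS samples and 265 to 319 FPKM in the IMQ + BZLF samples. Of these genes 5 of 8 were lower in IMQ + NS than in control samples, and their median log2 fold change between IMQ + BZLF and IMQ + NS samples was -0.11. The summed level of 8 glucocorticoid-induced genes did not follow this order, at 468, 817, 787 and 821 FPKM in the control replicates. Of the cell type sums, those of fibroblast genes did, at 15132, 13085, 18393 and 18643 FPKM in the control replicates 1 to 4. So did those of epidermal keratinocyte genes, at 2100, 1888, 2823 and 3020 FPKM. The sums of the other cell type lists did not. Those of proliferation genes (32.4, 184.7, 19.8 and 18.8 FPKM) and hair shaft genes (29.1, 290.8, 11.8 and 10.9 FPKM) ran the other way. The genes whose deviations from the group means were most like those of Per1 over the 12 samples, picked after the values were seen, were Atf3, Dusp1, Arhgap24, Mcl1 and Sik1, with Pearson r from 0.95 to 0.97 among 12657 genes. Atf3 is among the 8 immediate early genes and Dusp1 among the 8 glucocorticoid-induced genes. The part of these measures in the values of the clock genes was not tested.

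Dbp and Arntl are known to peak at opposite phases, and their ratio in a sample does not depend on how the sample was scaled. It was 17.9 to 24.1 in the control, 16.2 to 19.7 in the IMQ + NS and 16.9 to 30.1 in the IMQ + BZLF samples. The log2 ratio differed by -0.17 between IMQ + NS and control samples (two-sided exact permutation p = 0.2), by 0.34 between IMQ + BZLF and IMQ + NS samples (p = 0.286) and by 0.17 between IMQ + BZLF and control samples (p = 0.486). None of these differences exceeded the spread between replicates by this test. With Nr1d1 in place of Dbp the differences were -0.02, -0.33 and -0.34 (exact permutation p = 0.943, 0.0571 and 0.4), of the opposite sign in both comparisons of IMQ + BZLF samples.

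**Figure D4:**
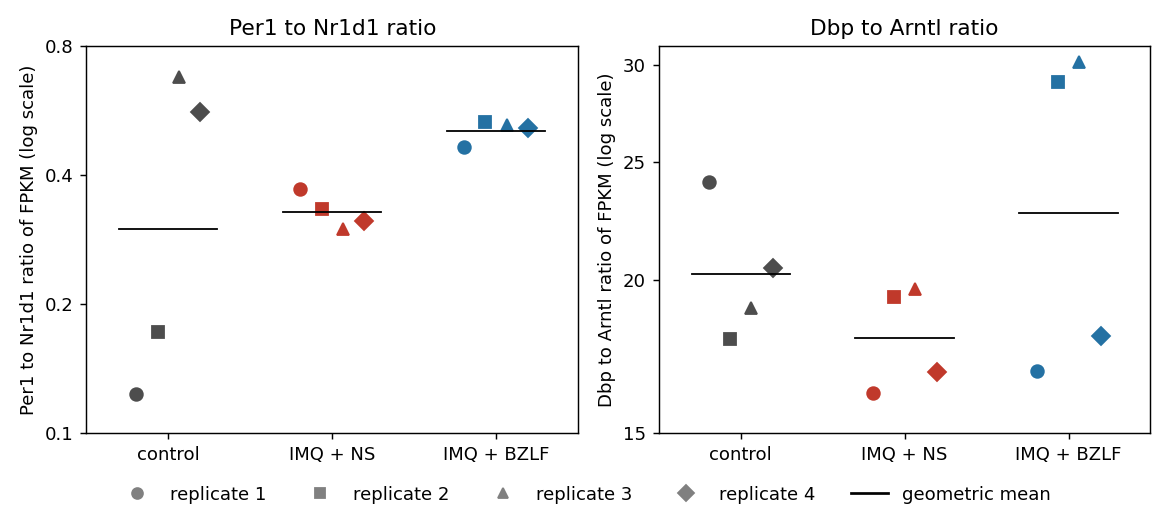
Ratio of Per1 to Nr1d1 and ratio of Dbp to Arntl, both of FPKM (vertical axes on a log scale), in each replicate of the 3 groups, with a line for the geometric mean. The Per1 to Nr1d1 ratio of the controls runs from 0.123 to 0.677 around both tight IMQ groups, and the Dbp to Arntl ratio overlaps between all groups.

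The partners of the members in the loop were taken as a list of 26 genes, of which 25 were in the table and 24 were tested. Partners changed in both directions after IMQ. In IMQ + NS versus control samples 8 were higher and 8 were lower, with a median log2 fold change of 0.09, and when samples were rescaled to equal sums the counts were 5 higher and 9 lower. In IMQ + BZLF versus IMQ + NS samples 0 were higher and 1 was lower by limma (4 and 2 at an unadjusted p below 0.05), and versus control samples 6 were higher and 8 lower. Of all genes tested, 29.0% were higher and 27.1% lower in the first of these comparisons. The shares were 1.28% and 5.17% in the second, and 23.8% and 29.2% in the third. At an unadjusted p below 0.05, 7.96% of all genes were higher and 14.8% lower in the second.

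Of the activators, Clock fell by 0.57 ± 0.11 (SE) and Npas2, which can stand in for Clock, by 1.88 ± 0.28 on the log2 scale in IMQ + NS versus control samples (adjusted p = 0.00284 and 0.000689, limma). Clock was at 7.63, 7.25, 5.88 and 6.11 FPKM in the control replicates, at 4.07 to 4.72 FPKM in the IMQ + NS and at 3.65 to 4.32 FPKM in the IMQ + BZLF samples, without overlap with the controls. Npas2 was at 1.75, 0.781, 0.793 and 0.666 FPKM in the control replicates and at no more than 0.280 FPKM in any IMQ sample. Arntl was at 1.18, 1.14, 1.02 and 1.05 FPKM in the control replicates, at 0.844 to 0.925 FPKM in the IMQ + NS samples and at 0.724 to 0.939 FPKM in the IMQ + BZLF samples. All IMQ samples were below the lowest control in Arntl. Of all genes, 25.7% lay entirely lower than the controls in the IMQ + NS samples and 28.1% in the IMQ + BZLF samples. The log2 fold change of Arntl was -0.28 ± 0.12 in IMQ + NS (adjusted p = 0.0704) and -0.41 ± 0.14 in IMQ + BZLF versus control samples (adjusted p = 0.0347). Arntl2, a paralog of Arntl, was at 0.393, 1.14, 0.794 and 0.569 FPKM in the control replicates, at 0.694 to 1.27 FPKM in the IMQ + NS samples and at 0.475 to 0.688 FPKM in the IMQ + BZLF samples. It did not pass in any comparison, with log2 fold changes of 0.26 ± 0.31 in IMQ + NS versus control samples (adjusted p = 0.499) and -0.45 ± 0.20 between IMQ + BZLF and IMQ + NS samples (adjusted p = 0.226), whose ranges did not overlap. Of all genes, 10.9% lay entirely lower in the latter comparison, and Arntl2 was added after its values were seen. Like Nr1d1 and unlike the Per genes, Clock and Arntl were higher in control replicates 1 and 2 than in 3 and 4.

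In the second loop, Rora, which encodes a nuclear receptor that activates Arntl where the REV-ERB receptors repress it, fell by 0.53 ± 0.17 on the log2 scale in IMQ + NS versus control samples (adjusted p = 0.0230, limma). It was at 7.11, 6.92, 9.25 and 10.3 FPKM in the control replicates, all above the IMQ + NS samples at 4.77 to 6.81 FPKM. Nfil3, a repressor that competes with DBP and TEF at the D-box, moved the other way. It was at 4.09, 7.004, 4.73 and 5.64 FPKM in the control replicates, at 9.44 to 11.9 FPKM in the IMQ + NS and at 11.8 to 15.8 FPKM in the IMQ + BZLF samples. Nfil3 was higher by 1.01 ± 0.16 in IMQ + NS (adjusted p = 0.000962) and by 1.28 ± 0.17 in IMQ + BZLF versus control samples (adjusted p = 0.000551). Hlf, the third PAR bZIP gene, fell by 0.61 ± 0.19 in IMQ + NS versus control samples (adjusted p = 0.0232). Bhlhe41, an E-box repressor, fell by 0.58 ± 0.12 there (adjusted p = 0.00424), and its paralog Bhlhe40 fell by 0.38 ± 0.09 in IMQ + BZLF versus IMQ + NS samples at the edge of the threshold (adjusted p = 0.0495). The D-box activators Dbp, Tef and Hlf were thus lower and the D-box repressor Nfil3 higher in the IMQ + NS samples.

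Among kinases, ubiquitin ligases and cofactors that act on the PER and CRY proteins, 5 of 10 were higher and 1 of 10 was lower in IMQ + NS versus control samples. Of all genes tested, 29.0% were higher and 27.1% lower in this comparison. Csnk1e, casein kinase 1 epsilon, which marks PER proteins for degradation, was at 7.66, 10.3, 6.93 and 6.77 FPKM in the control replicates, at 17.2 to 20.6 FPKM in the IMQ + NS and at 20.1 to 22.9 FPKM in the IMQ + BZLF samples. Csnk1e was higher by 1.29 ± 0.14 on the log2 scale in IMQ + NS and by 1.42 ± 0.14 in IMQ + BZLF versus control samples (adjusted p = 0.000117 and 0.000108, limma). Csnk1d, Fbxw11, Gsk3b and Nono were higher by 0.40 to 0.49 in IMQ + NS versus control samples, and Btrc, a ubiquitin ligase subunit that recognizes phosphorylated PER, fell by 0.86 ± 0.11 (adjusted p = 0.000324). Of the outputs of the clock, Noct, a phosphatase with a nighttime peak, was higher by 1.496 ± 0.24 and Usp2 by 0.51 ± 0.15, while Nampt, the rate-limiting enzyme of NAD salvage, fell by 0.80 ± 0.13 (adjusted p = 0.00101, 0.0170 and 0.00101). Control replicate 2 had the highest control value of Csnk1e, Csnk1d, Fbxw11, Gsk3b, Nono and Noct. Without it 10 partners were higher and 8 lower in both comparisons with controls. Of all 15288 genes tested, 6036 were then higher and 4425 lower for IMQ + NS, and 5366 higher and 4744 lower for IMQ + BZLF.

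The makeup of the tissue also moved between the groups. In IMQ + NS versus control samples 8 of 8 skeletal muscle genes were lower with a median log2 fold change of -2.96, and their summed level was 3641 to 9059 FPKM in the control, 642 to 1589 FPKM in the IMQ + NS and 1158 to 1603 FPKM in the IMQ + BZLF samples. Fibroblast genes were lower in 5 of 6 (median -1.68, summed 13085 to 18643, 3681 to 4890 and 4286 to 8109 FPKM), and adipocyte genes in 7 of 8 (median -1.498, summed 4501 to 9871, 2051 to 3139 and 2868 to 3322 FPKM). Hair shaft keratin genes were higher in 8 of 8 (median 8.14, summed 10.9 to 290.8, 5197 to 7668 and 6987 to 10628 FPKM). Neutrophil genes were higher in 6 of 7 and then lower in 7 of 7 in IMQ + BZLF versus IMQ + NS samples (median -3.08), with sums of 37.8 to 56.9, 3130 to 9900 and 63.9 to 84.6 FPKM. No gene of these lists was at 0 in all samples of a group. The falls of Cry2, Tef, Dbp and Nr1d2 in IMQ + NS versus control samples went with lower muscle, fibroblast and adipocyte sums. Sebaceous gland and macrophage genes were also mostly lower there (5 of 7 and 6 of 7, with 1 of 7 higher in each). Of the endothelial genes 3 of 5 were lower and 0 higher. Epidermal keratinocyte, hyperproliferative keratinocyte and proliferation genes were mostly higher (5 of 6, 4 of 4 and 7 of 8). The fall of Nr1d1 between IMQ + NS and IMQ + BZLF samples went with lower sums of neutrophil genes and of hyperproliferative keratinocyte genes (2344 to 4207 and 1140 to 1392 FPKM, 3 of 4 lower, median -3.40) and epidermal keratinocyte genes (4850 to 7653 and 2240 to 3780 FPKM, 3 of 6 lower, median -0.63). Macrophage sums were also lower there (620 to 876 and 404 to 601 FPKM, 2 of 7 genes lower and 0 higher, median -0.49). In the control samples Nr1d1 was at 15.6 ± 7.91 FPKM (SD, n = 4). The neutrophil, hyperproliferative and epidermal keratinocyte sums had their lowest group medians there, at 38.1, 251 and 2462 FPKM. The macrophage sum had its highest group median there, at 994 FPKM. The part of the tissue makeup in these results was not tested.

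Some members share exon sequence with a gene on the opposite strand in the GENCODE annotation. Of the exon bases of Nr1d1 263 of 3077 lie over Thra, and of those of Dbp 539 of 2993 lie over Sphk2. The sources differ on whether a strand-marking kit was used, so reads of such partners may not have been told apart. Thra, which was added after the values were seen, was at 34.7, 32.5, 25.4 and 25.3 FPKM in the control replicates, at 17.4 to 24.6 FPKM in the IMQ + NS and at 21.96 to 24.7 FPKM in the IMQ + BZLF samples. Like Nr1d1 it was higher in control replicates 1 and 2 than in 3 and 4, and its IMQ + BZLF and IMQ + NS samples overlapped. Sphk2, also added afterwards, was at 12.4 to 14.4, 13.01 to 13.6 and 10.9 to 11.8 FPKM in the 3 groups, with the lowest group another than for Dbp. Tef and Cry2 overlap noncoding genes that the table does not list.

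The members were also compared by how they varied within groups, and some members varied together more than others. Per2 and Cry2 were most alike, with a Pearson r of 0.88 between their deviations from the group means over the 12 samples, followed by Per3 and Tef (0.85), Per2 and Tef (0.83), Per1 and Cry2 (0.81) and Per1 and Per2 (0.81). Among 12657 genes ranked by likeness to Per2, Cry2 was at rank 23, Tef at 76 and Per1 at 99. Nr1d1 ran opposite to Per2 (r = -0.81) and Per1 (r = -0.79). Dbp was less like the other members. Its r was highest with Akap8l, Mapk14, Cd3d, Pip4p1 and Jazf1, from 0.85 to 0.93 among 12657 genes whose mean reached 1 FPKM. Of the members, Nr1d1 came first at rank 1017 (r = 0.48), followed by Ciart at 1513, Nr1d2 at 1789 and Tef at 1949. Per3 was at rank 4591, Per2 at 6993, Per1 at 9181, Cry1 at 9612 and Cry2 at 10054. The 12 points share the scaling of their samples, so the r values are given with no test. Per1 and Nr1d1 deviated most in the controls, with SDs of 0.53 and 0.71 against at most 0.09 and 0.19 in the IMQ groups. Their r values, here and above, therefore rest largely on the control samples.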

How the data were processed

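Total RNA of back skin from 12 mice was sequenced. The methods of the study describe mirVana extraction, TruSeq Stranded libraries, alignment with Bowtie2 to transcripts and quantification with eXpress, whereas the labels name TRIzol and a VAHTS kit, and the submitters' processing notes name fastp, HISAT2, HTSeq, R 3.2.0 and the build mm10. The authors deposited FPKM values, normalized for transcript length and depth, with 1 value per gene and sample and no pooling. Values of low genes were not whole multiples of a read (32.7% of 16070 within 0.05), so counts were not rebuilt and depth is unknown.

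The 15288 genes whose mean reached 0.1 FPKM were tested on log2(FPKM + 0.1) with limma 3.58.1 in R 4.3.3 (trend on expression, 4 against 4 samples), with Benjamini-Hochberg adjustment and a threshold of 0.05. Single values were also compared by two-sided exact permutation tests, whose smallest p is 0.0286. The fit was tested on simulated data. No 2 columns were identical, and the lowest Pearson r within a group was 0.949. All 10 members are named. Of the partners, Arntl, Clock, Npas2, Arntl2 (added after its values were seen) and those that passed in any comparison are named, except for a result that is not reported here, and of the tissue lists only counts and sums. Genes like Dbp were ranked by deviations from group means. The members and lists were chosen with earlier results of these data known. Alternatives were a constant of 0.01 or 1, no filter or a mean of at least 1, median ratio scaling, equal sums, quantile normalization, all 12 samples in 1 fit, robust moderation, no trend, a replicate block, an unadjusted p with a 2-fold limit, and each sample left out. Promoter windows and loci came from RefSeq (GRCm38.p6) and exons from GENCODE vM21.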

Additional observations from a re-analysis of the deposited data

Results flagged for a closer look

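Of the 48 groups of 4 samples checked over the members, Arntl, Clock, Npas2 and the ratios of Per1 to Nr1d1 and of Dbp or Nr1d1 to Arntl, 3 held a sample whose gap to the nearest other sample was larger, for the range of the group, than Dixon's 95% limit, where chance gives about 1 in 20. Ciart was at 0.967 FPKM in IMQ + BZLF replicate 4, far below 1.31 to 1.33 FPKM in the other IMQ + BZLF samples. Clock was at 3.65 FPKM in IMQ + BZLF replicate 1, below 4.29 to 4.32 FPKM in the others. Npas2 was at 0.280 FPKM in IMQ + BZLF replicate 3, above 0.122 to 0.139 FPKM in the others. The 3 values came from 3 different samples. Without IMQ + BZLF replicate 4 the log2 fold change of Ciart versus control samples was 0.06 in place of -0.05.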

How the results depend on the processing

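The falls of Cry2, Tef and Nr1d2 in IMQ + NS versus control samples and that of Cry2 in IMQ + BZLF versus control samples kept their direction and passed in all 19 alternatives to the adjusted test. In IMQ + NS versus control samples the fall of Cry2 exceeded 2-fold with equal sums (-1.04), quantile normalization (-1.06) or without control replicate 2 (-1.04). The correlations between the deviations of samples with the same replicate number ran from -0.15 to 0.26. They were above 0 for replicates 3 and 4 in every comparison, and they cannot settle whether the numbers pair the samples. With the replicate block, 3 members were lower in IMQ + NS versus control samples (Dbp at an adjusted p of 0.0505), Tef missed in IMQ + BZLF versus control samples (0.0612) and Nr1d1 passed there (0.0480), 0 partners were lower in IMQ + BZLF versus IMQ + NS samples and 4 in IMQ + BZLF versus control samples. With an unadjusted p and a 2-fold limit, 0 members passed in any comparison, and 3 partners were higher and 2 lower in IMQ + NS versus control samples, 0 lower in IMQ + BZLF versus IMQ + NS samples, and 3 higher and 1 lower in IMQ + BZLF versus control samples. Equal sums lowered the median of all genes in IMQ + NS versus control samples from 0.05 to -0.07 (3161 genes higher and 4999 lower in place of 4427 and 4142) and gave 5 partners higher there. Equal sums, quantile normalization and all 12 samples in 1 fit each gave 4 members lower in IMQ + BZLF versus control samples. In IMQ + BZLF versus IMQ + NS samples, median ratio scaling and the fit of all 12 samples gave 0 members lower, and median ratio scaling gave 1 partner higher. There 0 partners were lower with a constant of 0.01 or 1, no filter, median ratio scaling, equal sums, quantile normalization, all 12 samples in 1 fit or no trend. The cause of these changes was not tested.

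With each sample left out in turn, 0 to 1 members were lower in IMQ + BZLF versus IMQ + NS samples and 1 to 2 in IMQ + BZLF versus control samples, while partners ranged from 0 to 1 higher and 0 to 1 lower in the former and from 5 to 10 higher and 4 to 8 lower in the latter. The 10 were reached without control replicate 2. Fold changes near 0 turned sign. For Cry1 in IMQ + NS versus control samples the value was -0.082 with equal sums and -0.12 with quantile normalization, and for Per2 in IMQ + BZLF versus control samples -0.079 and -0.039. With samples left out, Cry1 and Ciart ranged from -0.043 to 0.12 and from -0.014 to 0.29 in IMQ + NS versus control samples, and in IMQ + BZLF versus control samples Per1 ranged from -0.21 to 0.13, Per2 from -0.13 to 0.18, Per3 from -0.17 to 0.058 and Ciart from -0.22 to 0.083. The Per1 to Nr1d1 log2 ratio in IMQ + NS versus control samples ranged from -0.30 (without control replicate 1) to 0.52 (without control replicate 3). With Nr1d1 in place of Dbp the Dbp to Arntl log2 ratio reversed to -0.33 in IMQ + BZLF versus IMQ + NS and -0.34 in IMQ + BZLF versus control samples. With 4 samples a group and unknown depth, members that did not pass may still have changed by amounts within their intervals. The unknown hour of collection cannot be told apart from the groups.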
